A study of Caenorhabditis elegans with 10 samples.

Results

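The genes described here are 185 protein-coding genes of *C. elegans* that carry only a sequence name in the deposited values and whose mRNA level stood at least 2-fold above its 10°C level on every sampled day at 4°C. A sequence name, such as *F19B10.13*, joins the name of the cloned piece of genome on which a gene was found to a number. It stays in use until a gene receives a locus name of letters, which usually follows the first study of a mutant or of the gene family. Sequence names therefore gather genes whose roles are mostly undescribed, and many of them belong to families found only in nematodes. The members were selected on measured values, from 9448 sequence-named genes listed, of which 4191 passed a filter of at least 1 FPKM (counted reads scaled to transcript length and to the size of the library) in at least 1 condition. The rule asked for a log2 ratio of FPKM + 0.1 to its 10°C value of at least 1 on each of day 1, day 3 and day 5, and left out the genes of 5 clones (C37A5, F53A9, K08D8, ZK896 and F56D6). Of all 10509 genes past the filter, 306 met the same ratio rule (2.91%): the 185 members, 111 genes with locus names and 10 genes of the clones left out. Because these ratios chose the members, they are given as a description and without a test.

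All animals were the wild-type strain N2, grown from the L1 larva on OP50 bacteria at 20°C to day-1 adults, and total RNA came from whole animals. The conditions were adults taken from 20°C when the others were moved to the cold (day 0), adults moved to 10°C for adaptation, and adults kept at 4°C for 1, 3 or 5 days after that adaptation. The 20°C animals are therefore no warm control of the same age for the days at 4°C, and time and temperature cannot be told apart. The labels give the time at 10°C as 3 h in one place and 2 h in another, and the samples titled as day 5 carry day 3 in their treatment label. The labels list 2 replicates per condition, but the values hold a single column for each condition, and how replicates were combined is not given in the sources used here. No spread between replicates can be had from them, so no p-value is given. Intervals are 95% counting limits of the ratio of reads, computed without the added 0.1, and cover counting error only.

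Between 70741449 counted reads (day 5) and 85103831 (day 1) lay behind the columns, where a read counts once for each transcript it overlaps. The median log2 ratio of all genes past the filter to 10°C was -0.09 on day 1, -0.13 on day 3 and -0.10 on day 5, so the median gene was slightly below its 10°C level. In 8 lists of markers for tissues and germ cells, no gene met the rule. The summed level of 6 intestinal markers was 321 FPKM at 20°C, 291 at 10°C, 212 on day 1, 202 on day 3 and 165 on day 5. Most of it was *asp-1* (233 FPKM at 10°C and 141 on day 5). Of the 6, 3 were at least 2-fold lower on day 5 than at 10°C. For 6 early-embryo markers, of which 2 passed the filter, the sum was 10.5 FPKM at 20°C, 6.88 at 10°C, 2.3 on day 1, 1.53 on day 3 and 2.25 on day 5. The 5 body wall muscle markers summed to 194 FPKM on day 5 and 295 at 10°C, with 2 of 5 at least 2-fold lower. The 5 hypodermal ones summed to 193 and 262, with 1 of the 3 past the filter at least 2-fold lower. Nearly all of the hypodermal sum was *col-19* (191 FPKM on day 5 and 259 at 10°C). The 5 oocyte markers summed to 556 FPKM on day 5 and 851 at 10°C, with none past 2-fold. The 6 neuronal ones summed to 115.4 and 89.4, also with none past 2-fold. Most of that difference lay in *snb-1* (76.8 FPKM on day 5 and 52.0 at 10°C). *egl-3* and *sbt-1* were also higher on day 5, whereas *rab-3*, *unc-119* and *unc-64* were lower. The median log2 ratio of the neuronal markers was 0.03. Germ line markers (372 and 371 FPKM) and sperm markers (4.62 and 4.49 FPKM) were close in level. In whole animals, a change in the number of cells of a type and a change in RNA per cell cannot be told apart, and the part of these shifts in the members' ratios was not tested.

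As a group the members were scarce at 20°C and 10°C and higher at 4°C, though still below the typical gene past the filter. Their median level was 0.568 FPKM at 20°C, 0.607 at 10°C, 4.46 on day 1, 5.08 on day 3 and 4.49 on day 5. The median of all genes past the filter was 11.8 FPKM at 10°C, 11.4 on day 1, 10.8 on day 3 and 10.1 on day 5. At day 5, 52 members were at 10 FPKM or more and 18 were under 1 FPKM, against 13 and 110 at 10°C. The members held 0.0342% of the counted reads at 20°C, 0.0435% at 10°C, 0.257% on day 1, 0.363% on day 3 and 0.260% on day 5. These shares take 1 transcript per gene, whereas the total counts a read once for each transcript. By the same measure, all 10509 genes past the filter held only 52.5% at 10°C. At both 20°C and 10°C, 107 members (57.8%) were under 1 FPKM, beside 4.83% of all genes past the filter. These passed the filter only through the days at 4°C on which the rule asked for a high level, so their low level before the cold follows from the selection. The median log2 ratio to 10°C was 2.08 on day 1, 2.46 on day 3 and 2.19 on day 5, and 24 members reached a log2 ratio of at least 4 on day 5.

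**Figure D1:**
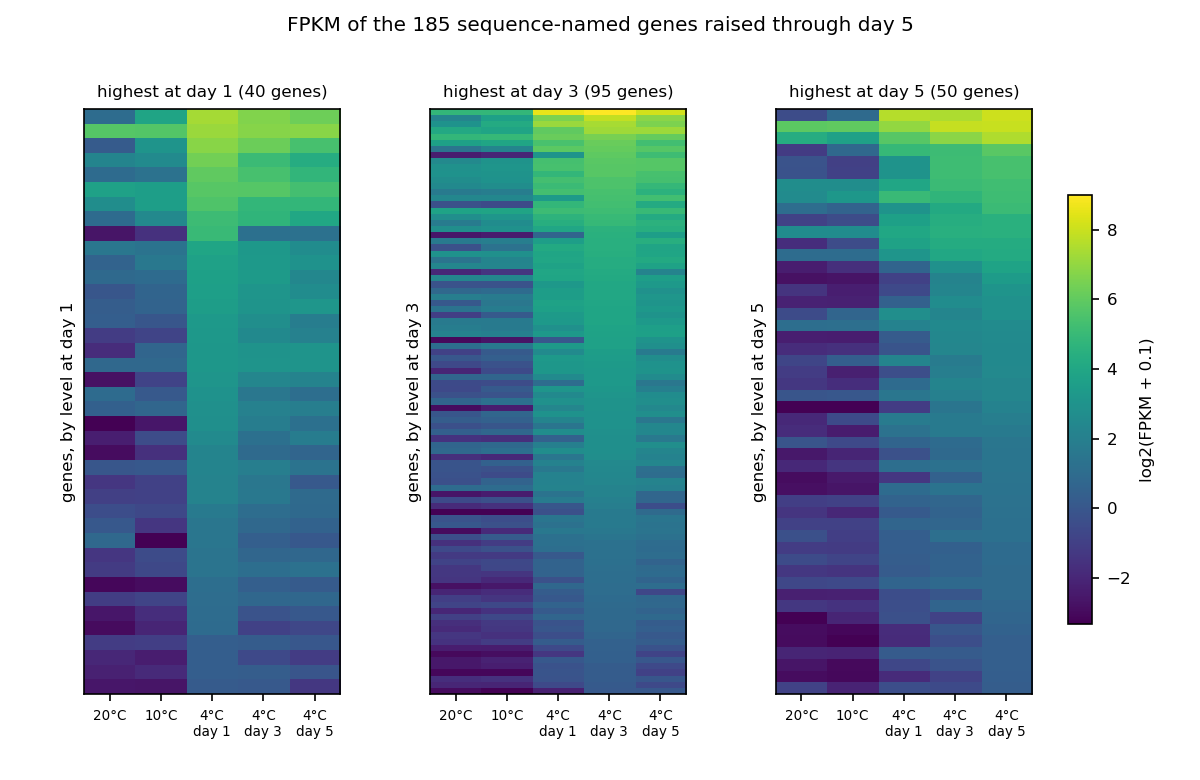
Level of each of the 185 members in the 5 conditions, as log2(FPKM + 0.1) in colour, in 3 panels by the day at 4°C with the highest level (40, 95 and 50 genes); each row is a gene, sorted by its level on that day. The 2 left columns of each panel (20°C and 10°C) are darker than the 3 right ones, as the rule requires for 10°C, and the 20°C column resembles the 10°C column in most rows.

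The most abundant member on day 5 was *Y94H6A.10*, a gene of 1 exon on chromosome IV (2710121 to 2710666, WBcel235). Its level was 28.4 FPKM at 20°C, 28.2 at 10°C, 384 on day 1, 609 on day 3 and 290.1 on day 5. It did not differ between 10°C and 20°C beyond counting error (limits of the log2 ratio -0.12 to 0.11) and was highest on day 3 (log2 ratio of day 5 to 10°C 3.36, counting limits 3.28 to 3.44). *F19B10.13*, a gene of 1 exon and 345 bases on chromosome II (3662274 to 3662618), was close behind on day 5 from a far lower start. It stood at 0.620 FPKM at 20°C, 1.84 at 10°C, 199 on day 1, 181 on day 3 and 270.2 on day 5. Its reads numbered 6595 on day 5 and 53 at 10°C, a log2 ratio of 7.13 (6.81 to 7.62), and it was the only gene among both the 10 highest members on day 5 and the 10 with the largest ratio.

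Other abundant members were already present in warm animals. *F08B12.4* had 59.8 FPKM at 20°C, 63.2 at 10°C, 127 on day 1, 240.3 on day 3 and 252 on day 5. *T28F4.5*, named *dap-1* in RefSeq, had 54.5 FPKM at 20°C, 51.5 at 10°C, 141 on day 1, 109.8 on day 3 and 113 on day 5. Both were near the 2-fold limit on at least 1 day, with log2 ratios of 1.01 for *F08B12.4* on day 1 and 1.09 for *T28F4.5* on day 3. *F37C4.5* had 28.8 FPKM at 20°C, 30.0 at 10°C, 73.0 on day 1, 87.4 on day 3 and 67.3 on day 5. *W05H9.1*, named *lro-1* in later annotation, had 17.0 FPKM at 20°C, 14.7 at 10°C, 63.8 on day 1, 149 on day 3 and 147 on day 5. It gained most of its level after day 1 and then held it. *F59C12.4* had 19.7 FPKM at 20°C, 13.4 at 10°C, 56.2 on day 1, 117 on day 3 and 184 on day 5, higher on each later day.

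The remaining 3 of the 10 highest members were already higher at 10°C than at 20°C. *T19D12.4*, which has 12 exons on chromosome II, had 4.78 FPKM at 20°C, 12.9 at 10°C, 95.2 on day 1, 236 on day 3 and 115 on day 5. *F45D3.4* had 7.66 FPKM at 20°C, 18.2 at 10°C, 141 on day 1, 166 on day 3 and 93.4 on day 5. *Y41C4A.32* had 1.97 FPKM at 20°C, 14.5 at 10°C, 163 on day 1, 101 on day 3 and 77.2 on day 5. The first 2 peaked on day 3, whereas *Y41C4A.32* peaked on day 1.

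**Figure D2:**
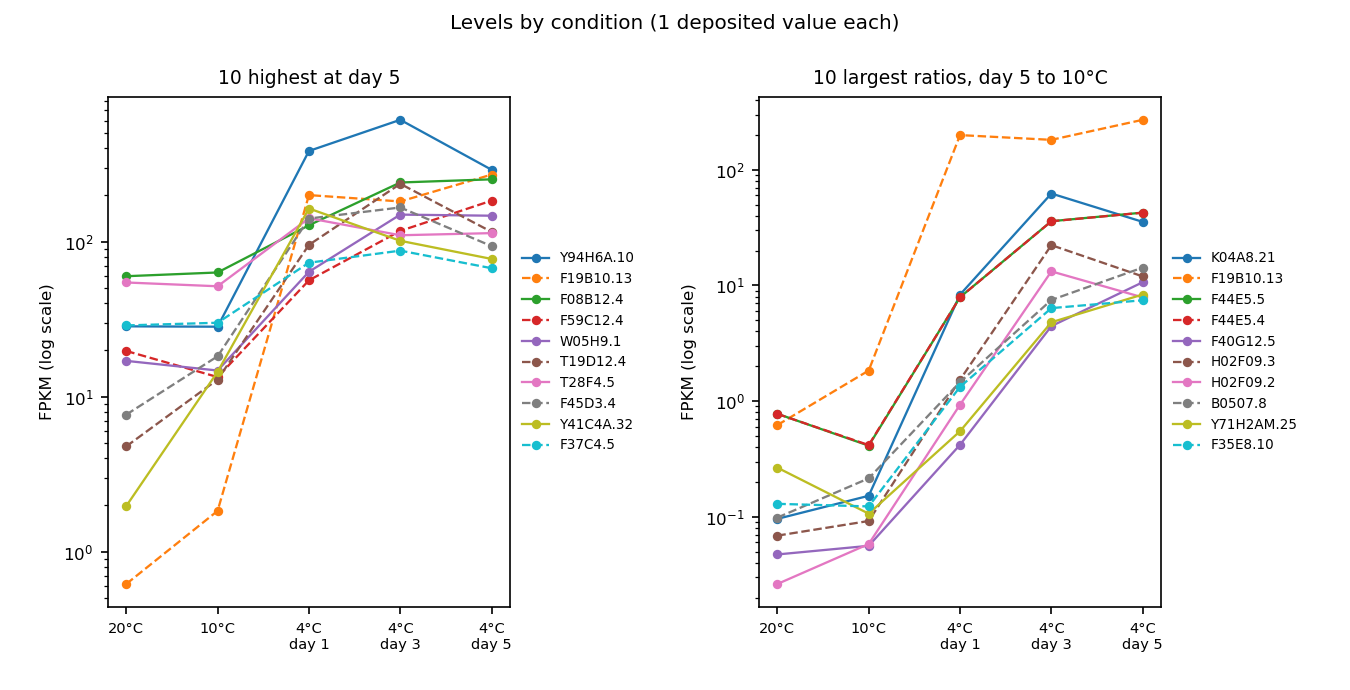
FPKM on a log axis in the 5 conditions (1 deposited value each) for the 10 members with the highest level on day 5 (left) and the 10 with the largest log2 ratio of day 5 to 10°C among those with at least 3 reads at 10°C (right). *F19B10.13* is in both panels, at 270.2 FPKM on day 5 and 1.84 FPKM at 10°C, and the lines of *F44E5.4* and *F44E5.5* lie on each other.

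Apart from *F19B10.13*, the 10 largest ratios of day 5 to 10°C belonged to genes under 1 FPKM at 20°C and 10°C. A low base favours a large ratio, so this follows in part from the ranking. *K04A8.21*, named *spp-27* in later annotation after the saposin-like proteins, a family of small lipid-binding proteins that includes antibacterial ones, had 0.0958 FPKM at 20°C, 0.152 at 10°C, 8.32 on day 1, 62.3 on day 3 and 35.4 on day 5. It had 987 reads on day 5 and only 5 at 10°C, which gave a log2 ratio of 7.14 (6.64 to 9.49), the largest of any member at that day. *F44E5.4* and *F44E5.5* are adjacent genes of the Hsp70 family, chaperones known to be strongly induced by heat in worms. *F44E5.5* had 0.776 FPKM at 20°C, 0.411 at 10°C, 7.91 on day 1, 35.9 on day 3 and 42.6 on day 5. The log2 levels of *F44E5.4* differed from these by at most 0.02 in any condition, so reads of the pair may be shared and their individual levels are uncertain. The pair is better read as 1 signal, with a log2 ratio of day 5 to 10°C of 6.38 for *F44E5.5*.

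*F40G12.5* came up late. It had 0.0472 FPKM at 20°C, 0.0560 at 10°C, 0.418 on day 1, 4.45 on day 3 and 10.7 on day 5. Its log2 ratio of day 5 to day 1 was 4.37 (4.20 to 5.18), the largest of the members. *Y71H2AM.25* took a similar course, with 0.266 FPKM at 20°C, 0.106 at 10°C, 0.548 on day 1, 4.8 on day 3 and 8.34 on day 5. *H02F09.3*, on chromosome X, had 0.0686 FPKM at 20°C, 0.0918 at 10°C, 1.53 on day 1, 22.3 on day 3 and 12 on day 5. Its neighbour *H02F09.2* shared 52.3% of its exon bases with it and followed the same course at a lower level (13.2 FPKM on day 3 and 0.0580 at 10°C), so these are not separate measurements. *F35E8.10* had 0.129 FPKM at 20°C, 0.123 at 10°C, 1.33 on day 1, 6.36 on day 3 and 7.44 on day 5. *C54F6.6* was listed with 0 reads at 20°C and at 10°C, and had 13 reads on day 1, 92 on day 3 and 130 on day 5, for which no fold is given. With the floor of 3 reads, 18 members were below it at 10°C, and 5 of those had 0 reads.

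After day 1 the members parted. Among the 3 days at 4°C, 40 members (21.6%) were highest on day 1, 95 (51.4%) on day 3 and 50 (27%) on day 5. Among the 111 genes with locus names that met the same rule, 26 (23.4%) were highest on day 1, 70 (63.1%) on day 3 and 15 (13.5%) on day 5. Among all genes past the filter the shares were 38.3% on day 1, 20.2% on day 3 and 41.5% on day 5. These differences were not tested, and all 3 days entered the rule. The median log2 ratio of day 5 to day 1 was 0.07, beside -0.01 for all genes past the filter, and ran from -3.75 to 4.37 among the members. By counting limits 68 members were higher on day 5 than on day 1, 66 were lower and 51 could not be placed. The shares, 36.8% higher and 35.7% lower, were near those of all genes past the filter by the same limits (35% and 36.6%), which had more reads (median 815 on day 5, against 230 for members). At 2-fold, 33 members (17.8%) were higher and 23 (12.4%) lower on day 5 than on day 1, beside 1.16% and 12% of all genes. Both days entered the rule, so these shares are not evidence about the members.

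The direction of the group differed between the earlier and the later stay at 4°C. At day 3, 38 members (20.5%) were at least 2-fold higher than on day 1 and 8 (4.32%) at least 2-fold lower, beside 1.57% and 4.65% of all genes. At day 5, 3 members (1.62%) were at least 2-fold higher than on day 3 and 20 (10.8%) at least 2-fold lower, beside 0.152% and 4.98% of all genes. The 3 that were higher, chosen after their values were seen, were *F40G12.5*, *W04G5.8* and *B0336.12*, and the last had 9 reads on day 5. The median log2 ratio was 0.34 for day 3 to day 1 and -0.23 for day 5 to day 3. The 111 genes with locus names that met the rule took the same course, with medians of 0.33 and -0.36. Of these, 24.3% were at least 2-fold higher on day 3 than on day 1 and 4.5% lower. On day 5, 0.901% were at least 2-fold higher than on day 3 and 18% lower. Since the genes with locus names shared it, the course is not particular to the members. All 3 days entered the rule, and the course was not tested. Within counting limits, 21 members (11.4%) were higher on each later day and 15 (8.11%) were lower on each later day, beside 9.63% and 12.5% of all genes past the filter.

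**Figure D3:**
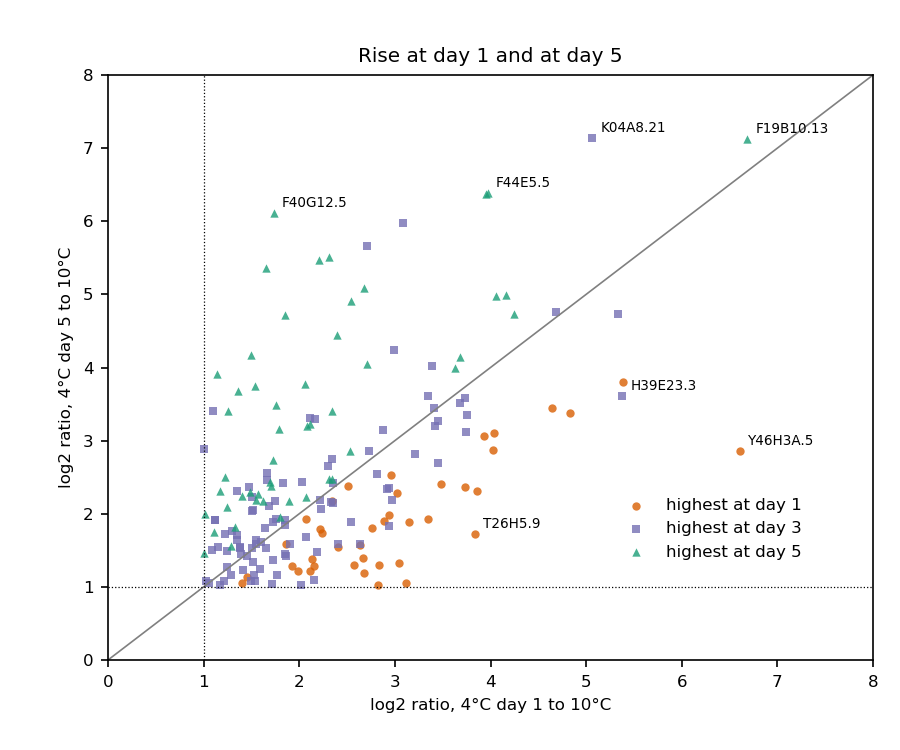
Log2 ratio to 10°C on day 1 (x axis) and on day 5 (y axis) of the 185 members, each with 0.1 FPKM added, with the marker giving the day of the highest level. Dotted lines mark the limit of 1 set by the rule and the grey line marks equal ratios; *F40G12.5* lies farthest above the grey line and *Y46H3A.5* farthest below it.

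The steepest early peak was that of *Y46H3A.5*, a gene of 4 exons on chromosome V (1811423 to 1813371). It had 0.0612 FPKM at 20°C, 0.233 at 10°C, 32.3 on day 1, 2.24 on day 3 and 2.3 on day 5. Its level on day 5 was still above that at 10°C (log2 ratio 2.85, limits 2.56 to 4.16) but lay 3.75 below day 1 on the log2 scale. *T26H5.9* had 4.57 FPKM at 20°C, 5.81 at 10°C, 84.1 on day 1, 33.3 on day 3 and 19.4 on day 5, lower on each later day. *T04C12.7* had 0.287 FPKM at 20°C, 0.430 at 10°C, 4.49 on day 1, 2.81 on day 3 and 1.00 on day 5. It stayed only just inside the rule on day 5, with a log2 ratio of 1.05. *H39E23.3* had 0.163 FPKM at 20°C, 0.277 at 10°C, 15.6 on day 1, 18.5 on day 3 and 4.49 on day 5. Here the high level lasted through day 3, and the drop came between day 3 and day 5. The fourth gene of this kind by the ratio of day 5 to day 1, *Y32F6B.9*, is 60 bases long, lies wholly inside an exon of *crp-1* on the same strand and had 9 reads on day 5.

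The 20°C column was not used by the rule's ratios. At day 5, 180 of the 185 members (97.3%) were at least 2-fold above 20°C, beside 5.4% of all genes past the filter, and the median log2 ratio was 2.46 for members and -0.11 for all genes. The 20°C and 10°C levels of most members lay close together, so this count is no independent result. The 5 exceptions, named after their values were seen, were *Y39G10AR.11*, *Y32F6B.9*, *T24C2.5*, *B0035.22* and *T26H5.4*. *Y39G10AR.11* was just under the limit, at 7.63 FPKM at 20°C, 7.14 at 10°C, 15 on day 1, 21.1 on day 3 and 15 on day 5. *T24C2.5* had 0.958 FPKM at 20°C, 0.293 at 10°C, 2.80 on day 1, 1.71 on day 3 and 1.37 on day 5, so its day-5 level was 0.47 above 20°C on the log2 scale. *B0035.22*, a stretch of 30 bases, was the only member below its 20°C level on day 5, with 2 reads on day 5 and 4 at 20°C.

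A subset of members was already higher after the short stay at 10°C. At 10°C, 24 members (13%) were at least 2-fold above 20°C, beside 1.27% of all genes, and 4 members (2.16%) were at least 2-fold below, beside 0.933%. For 10°C to 20°C, the median log2 ratio was 0.16 for members and -0.02 for all genes, and the members' median was 0.060 with a pseudocount of 1. The 10°C column is also the base of the rule, and with 1 column per condition the difference from the background was not tested. Of the 24, 22 had counting limits above 0, and they did not share a later course: 9 were highest on day 1, 8 on day 3 and 7 on day 5.

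**Figure D4:**
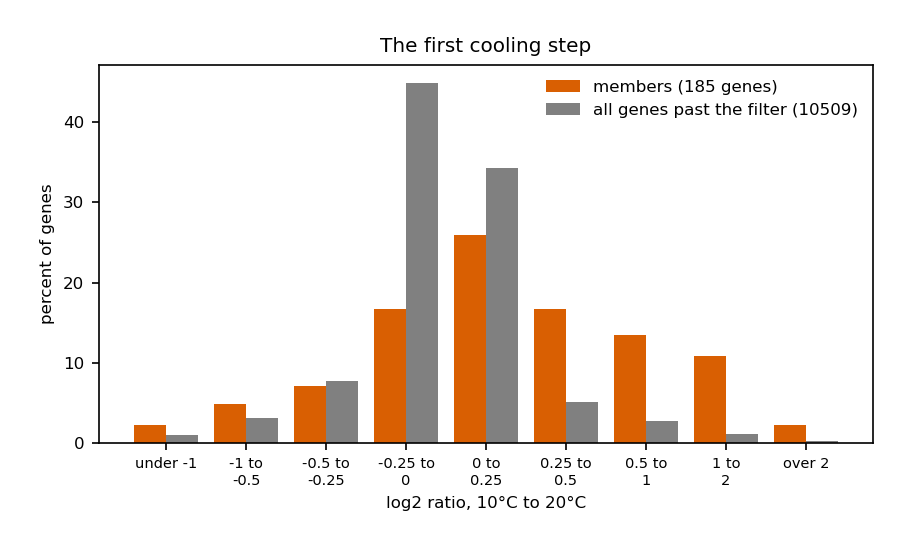
Percent of the 185 members and of all 10509 genes past the filter in each class of the log2 ratio of 10°C to 20°C (0.1 FPKM added); bars start at 0. Of the members 13% lie at 1 or above, beside 1.27% of all genes.

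The largest ratio at this step was that of *Y47H10A.5*, on chromosome I, with 1.07 FPKM at 20°C, 8.28 at 10°C, 111 on day 1, 75 on day 3 and 43.1 on day 5. Its log2 ratio of 10°C to 20°C was 2.84 (2.68 to 3.25). *Y41C4A.32*, given above, followed with 2.81 (2.63 to 3.13). *C25F9.11* had 0.348 FPKM at 20°C, 1.71 at 10°C, 30.0 on day 1, 34.6 on day 3 and 57.0 on day 5. In contrast to *Y47H10A.5*, it was higher on each later day. *F22E5.6* had 0.0465 FPKM at 20°C, 0.457 at 10°C, 8.40 on day 1, 4.88 on day 3 and 4.53 on day 5, with 31 reads at 10°C and 3 at 20°C. The transcript taken for *B0348.2*, of 63 bases, had 8 reads at 10°C and 1 at 20°C, too few to fix its ratio (0.03 to 8.40). The other transcript of the gene, of 462 bases, had 31 reads at 10°C and 7 at 20°C.

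The genes lowest at 10°C relative to 20°C were mostly ones with few reads. *T24C2.5*, given above, had 18 reads at 10°C and 56 at 20°C, a log2 ratio of -1.43. *ZK792.12* and *C04C11.25* each had 1 read at 10°C and 3 at 20°C, and *B0035.22* had 0 at 10°C and 4 at 20°C. A low value at 10°C is also the base of the ratios that chose these genes. *C04C11.25* nonetheless reached 5.52 FPKM and 41 reads on day 5.

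At the edge of the rule, the members just inside were *C08G9.1*, *F43C9.2* and *F08B12.4*, with smallest log2 ratios over the 3 days of 1.001, 1.002 and 1.010. *C08G9.1* had 2.13 FPKM at 10°C, 4.37 on day 1, 5.70 on day 3 and 6.04 on day 5. The transcript taken for *F43C9.2*, of 42 bases, had 18 reads at 10°C and 37 on day 1. Its other transcripts, of 801 and 773 bases, had log2 ratios of 0.41 and 0.17 on day 1. The genes just outside were *C10C5.4*, *F59A7.2* and *C07E3.3*, with 0.995, 0.983 and 0.979. *C10C5.4* had 3.80 FPKM at 10°C, 7.68 on day 1, 15.3 on day 3 and 9.20 on day 5. The ratios on either side of the limit thus differed by little. A further 138 sequence-named genes past the filter were at least 2-fold above 10°C on day 1 but not on every later day.

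Length, exon number and position were not used by the rule, except that the filter acts on a value per length. The median length of the members' transcripts was 747 bases with 3 exons, beside 1014.5 bases and 5 exons for the other sequence-named genes past the filter. The genes with locus names that met the rule had a median of 1028 bases and 4 exons. Transcripts of 1 exon made up 24 of the 185 members (13%), beside 5.37% of the other sequence-named genes. The members included 13 transcripts under 150 bases (7.03%, beside 2.65%), which pass the filter on few reads. *C31E10.11*, of 141 bases, was the one with the most reads on day 5, with 2.05 FPKM at 20°C, 1.44 at 10°C, 8.0 on day 1, 17.7 on day 3 and 33.3 on day 5.

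Chromosome V, which in *C. elegans* carries many families found only in nematodes, held 64 of the members (34.6%), beside 19.4% of all sequence-named genes past the filter. Chromosome X held 38 (20.5%, beside 14.8%). The other chromosomes held 16 members (I), 27 (II), 18 (III) and 22 (IV), each a smaller share than among sequence-named genes past the filter. Put by chromosome, members made up 7.87% of the sequence-named genes past the filter on V, 6.13% on X and between 2.44% and 3.69% on the rest. These shares are a description and no test was run on them.

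Some members lay next to other genes that met the rule. Taking for each member the closest gene past the filter to its left and to its right (370 in all), 52 met it (14.1%), beside 2.91% of all genes past the filter. Without neighbours whose gene span, over all annotated transcripts, overlaps that of the member, 41 of 330 did (12.4%). Adjacent members count from both sides, among them *F44E5.4* and *F44E5.5*, read above as 1 signal. In all, 47 members (25.4%) had at least 1 neighbour that met the rule. Some of these neighbours, such as *rrf-2* and *C54F6.6*, passed the filter only through the days at 4°C. The shares of neighbours thus follow in part from the selection and were not tested. Within 10 kb of each other, 38 members (20.5%) formed 18 groups, 16 pairs and 2 groups of 3. Of the 18 groups, 10 were on chromosome V.

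**Figure D5:**
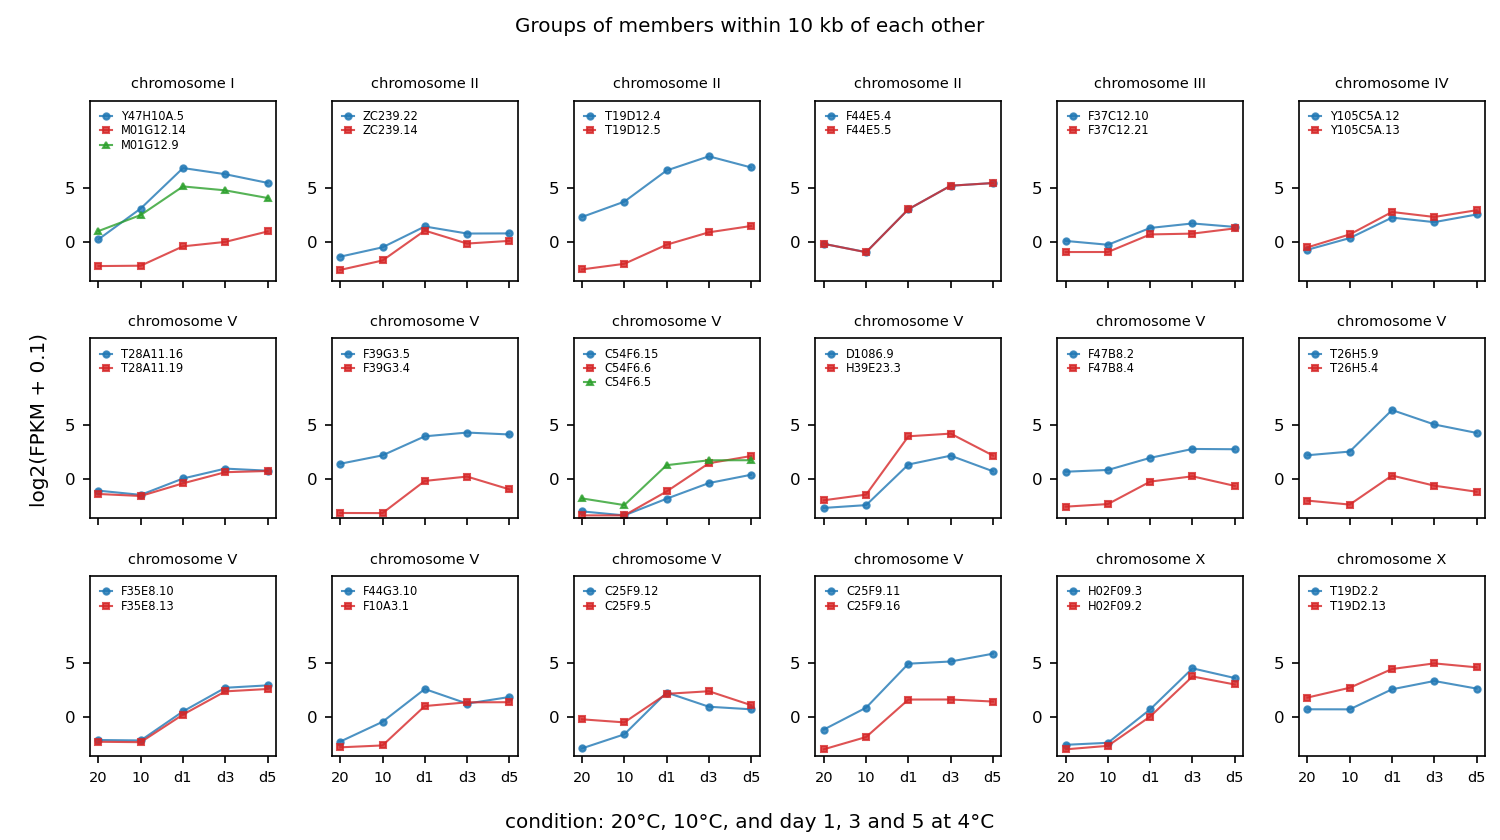
Levels, as log2(FPKM + 0.1), of the 38 members in the 18 groups of members within 10 kb of each other, 1 panel per group, over 20°C, 10°C and day 1, 3 and 5 at 4°C. Neighbours can run together (*F35E8.10* and *F35E8.13*) or at levels far apart (*T19D12.4* and *T19D12.5*).

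On chromosome I, *Y47H10A.5*, *M01G12.14* and *M01G12.9* lay between 12095482 and 12112505 on the minus strand. *M01G12.14* had 0.112 FPKM at 20°C, 0.116 at 10°C, 0.646 on day 1, 0.892 on day 3 and 1.83 on day 5. *M01G12.9* had 1.88 FPKM at 20°C, 5.43 at 10°C, 34.2 on day 1, 26.7 on day 3 and 16.3 on day 5. *M01G12.9* thus followed *Y47H10A.5*, with its peak on day 1, whereas *M01G12.14* was highest on day 5. Between *Y47H10A.5* and *M01G12.14* lay *rrf-2*, of the family of RNA-dependent RNA polymerases, which also met the rule. Its level was 0.698 FPKM at 20°C, 0.638 at 10°C, 2.37 on day 1, 3.32 on day 3 and 3.16 on day 5.

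On chromosome V, *C54F6.15*, *C54F6.6* and *C54F6.5* lay between 7521900 and 7529450. All 3 were near 0 before the cold, with 0, 0 and 2 reads at 10°C. *C54F6.15* had 7 reads on day 1, 24 on day 3 and 38 on day 5, and *C54F6.5* had 52 on day 1, 68 on day 3 and 60 on day 5. *C54F6.5* was thus near its full level by day 1, when the other 2 were still low. Among the pairs, *F35E8.13* had 0.105 FPKM at 20°C, 0.0996 at 10°C, 1.06 on day 1, 5.03 on day 3 and 5.88 on day 5, close to *F35E8.10* in every condition. *D1086.9*, beside *H39E23.3*, had 0.0610 FPKM at 20°C, 0.0927 at 10°C, 2.49 on day 1, 4.45 on day 3 and 1.58 on day 5, with the same drop after day 3. Genes this close may share reads where sequences are alike, and sequence was not analysed here.

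Some neighbours with locus names met the rule too. *ddn-1* lies 106 bases from *B0507.8* on chromosome V. *B0507.8* belongs to the intracellular pathogen response, a set of genes known to be induced together by microsporidia and by the Orsay virus. It had 0.0982 FPKM at 20°C, 0.214 at 10°C, 1.46 on day 1, 7.48 on day 3 and 14.3 on day 5. *ddn-1* had 0.378 FPKM at 20°C, 0.485 at 10°C, 1.31 on day 1, 7.79 on day 3 and 15.9 on day 5. The pair ran side by side through the stay at 4°C, both higher on each later day. The other such neighbours were *bigr-1*, the F-box gene *fbxc-58*, the synaptobrevin gene *snb-2*, the chemoreceptor gene *srw-86* and *pgp-10*, which encodes an ABC transporter of the P-glycoprotein family.

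Of 12 genes listed for the intracellular pathogen response, 4 passed the filter and 2 met the rule, *B0507.8* and *skr-5*, a relative of the ubiquitin ligase subunit Skp1. *skr-5* had 0.142 FPKM at 20°C, 0.579 at 10°C, 2.43 on day 1, 3.71 on day 3 and 1.69 on day 5. Over the 4 genes, the median log2 ratio to 10°C was 1.92 on day 1, 1.43 on day 3 and 0.80 on day 5. Of the 4, 3 were at least 2-fold higher on day 1, beside 5.49% of all genes past the filter. *B0507.8* and *skr-5* were under 1 FPKM at 20°C and 10°C and passed the filter only through the days at 4°C. Their rise follows in part from the selection, so the median and the count are not evidence about the response. Of the other two, *skr-3* had 43.0 FPKM on day 1 and 12.7 on day 5, against 11.1 at 10°C, and *skr-4* was lower on day 5 (2.08 FPKM, against 4.47 at 10°C). *B0507.6*, below the filter, had 69 reads on day 1, 147 on day 3 and 92 on day 5, against 27 at 10°C. *cul-6*, also below the filter, was at least 2-fold higher on day 1 only. With 0.1 FPKM added, the remaining genes below the filter were not 2-fold above 10°C on any day. Their reads were too few to settle whether they rose: *pals-14* had 8 reads at 10°C and 20 on day 5. *pals-5*, a common reporter of this response, was at no more than 2 reads in any condition. Of 10 genes of the unfolded protein response, the program that expands the folding capacity of the endoplasmic reticulum, all passed the filter and none met the rule. Their median log2 ratio to 10°C was 0.17 on day 1 and -0.25 on day 5. On both days 0 of them were at least 2-fold higher, and 1, *ckb-2*, was at least 2-fold lower on day 5. *hsp-4* had 180 FPKM at 10°C, 281 on day 1 and 157 on day 5. The study reported activation of this response in the cold from other measures, among them a fluorescent reporter of *hsp-4*.

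IRE-1 is a sensor in the endoplasmic reticulum that responds to unfolded proteins and to disturbed membrane lipids, and the study compiled published lists of genes that depend on it. Only membership was taken from these lists. In all, 24 members were in a list and none in more than 1. The list made under lipid stress (*pmt-2* RNAi, which limits phosphatidylcholine synthesis) held 17 members of the 104 sequence-named genes on it that passed the filter (16.3%). By comparison, 185 of all 4191 sequence-named genes past the filter were members. Some members on this list, such as *C06G3.3* and *C54F6.5*, were under 1 FPKM at 20°C and 10°C. They passed the filter only through the days at 4°C. The list made under tunicamycin, a drug that blocks protein glycosylation, held 2 of 28 (7.14%), *F22E5.6* and *T12D8.5*. *F22E5.6* also passed the filter only through the days at 4°C. The shares of both lists thus follow in part from the selection, were not tested and are not evidence about the lists. The list made in the cold held 5 of 8 (62.5%), but it was itself chosen from genes higher in the cold, so its share is not independent.

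Members on the lipid-stress list differed widely in level. *F19B2.5* had 5.42 FPKM at 20°C, 7.96 at 10°C, 40.8 on day 1, 57.2 on day 3 and 54.1 on day 5. *F16H6.10* had 3.29 FPKM at 20°C, 3.59 at 10°C, 40.3 on day 1, 43.0 on day 3 and 23.9 on day 5. Both were near their highest level on day 3, as was *Y37H2A.14*, with 0.738 FPKM at 20°C, 2.42 at 10°C, 17.6 on day 1, 21.5 on day 3 and 14.6 on day 5. The median log2 ratio of the 17 to 10°C was 2.63 on day 1 and 2.54 on day 5. Of the 5 on the cold list, *M60.7* had 0.438 FPKM at 20°C, 0.618 at 10°C, 12.7 on day 1, 20.6 on day 3 and 22.8 on day 5. *F08G2.5* had 0.141 FPKM at 20°C, 0.578 at 10°C, 8.95 on day 1, 9.92 on day 3 and 8.0 on day 5. The remaining ones were *M01G12.9*, *Y47H10A.5* and *T19D12.5*, each within 10 kb of another member.

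All 185 members were found in RefSeq, and 12 have since received locus names there, which point to families for some. *R74.10* is named *spp-28*, after the saposin-like proteins, in the Ensembl annotation and *ssp-28* in RefSeq, so its family is not settled by its name. It had 0.406 FPKM at 20°C, 0.534 at 10°C, 1.55 on day 1, 1.76 on day 3 and 1.75 on day 5. *F44G3.10* (*clc-11*) and *F10A3.1* (*clc-32*) are neighbours on chromosome V named for claudin-like proteins, which in animals are membrane proteins of cell junctions. *F44G3.10* had 0.108 FPKM at 20°C, 0.633 at 10°C, 5.87 on day 1, 2.25 on day 3 and 3.48 on day 5. *F10A3.1* had 0.0435 FPKM at 20°C, 0.0620 at 10°C, 1.91 on day 1, 2.45 on day 3 and 2.47 on day 5. *F08H9.3*, named *hsp-16.20* in RefSeq after the small heat shock proteins, had 0.294 FPKM at 20°C, 0.258 at 10°C, 1.06 on day 1, 1.36 on day 3 and 1.83 on day 5. Like the Hsp70 pair, it was highest on day 5, but at a low level. *F25E5.4* (*try-12*, of the trypsin-like proteases) had 0.354 FPKM at 20°C, 0.336 at 10°C, 1.17 on day 1, 1.26 on day 3 and 1.89 on day 5.

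For 55 members the files list more than 1 transcript. For 47 of these every other transcript met the ratio rule as well, and for 6 (*C42C1.9*, *F40F12.9*, *F43C9.2*, *W04A8.4*, *Y113G7B.27* and *Y39B6A.5*) no other transcript did. For *F08B12.4* 2 of 8 other transcripts met it, and for *C16D2.1* 1 of 2. Exon bases of 44 members lay in exons of another gene, and for 7 this held for at least 50% of the bases. *T19D2.13*, of 60 bases, lies wholly inside an exon of *T19D2.2* (*ptp-4A2*), itself a member. *C34D10.5* lies wholly inside an exon of *unk-1*, which had 5.21 FPKM on day 5 and 3.22 at 10°C and did not meet the rule. For *Y36E3A.2*, all bases lie opposite an exon of *fbxa-209*, and whether counting used the strand is not given in the sources used here. Without the transcripts under 150 bases and those with at least 50% of bases in other genes, 169 members were left, an alternative added after seeing the data.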

How the data were processed

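Total RNA of 10 samples (5 conditions, 2 replicates each) was sequenced. The authors processed reads with the ORFik pipeline (fastp 0.23.4, STAR 2.7.11b, genome WBcel235, DESeq2 1.42.1) and deposited FPKM per transcript, 1 column per condition. A column that belongs to 1 further condition outside these samples was not used. FPKM values multiplied by exon length (Ensembl release 115) gave whole reads for 100% of values (tolerance 0.02 read). Each gene took its transcript with the highest mean FPKM. Ratios used FPKM + 0.1. Limits on ratios of reads are exact binomial ones at 95%. Since no replicate columns were at hand, the planned limma fit was not run. The members and all lists were chosen with earlier results of these data known. Genes named were those highest at day 5, those with extreme ratios, those on the lists, in groups of neighbours or at the edge of the rule. The procedure was tested on simulated reads in which the raised genes had at least 1 FPKM at 10°C. Since 110 of the 185 members were under 1 FPKM at 10°C, that test does not cover their range. Alternatives changed the pseudocount, filter, threshold, base, centring and choice of transcript. Protein relatives and promoter motifs had been planned and were not analysed here. Software: matplotlib 3.10.9, scipy 1.17.1, pandas 2.3.3, numpy 2.4.6, Python 3.11.15.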

Additional observations from a re-analysis of the deposited data

How the results depend on the processing

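The number of members, 185, depended most on the fold and on the treatment of low values. It was 96 with a pseudocount of 1, 106 with a filter at 5 FPKM, 297 at 1.5-fold, 68 at 4-fold and 115 where the lower counting limit of each day had to exceed 2 times the upper limit at 10°C. A pseudocount of 0.01 gave 201, no filter 232, centring on the median of all genes 204, sums over transcripts 189 (181 shared), at least 3 reads at 10°C 167 and 20°C as the base 230 (171 shared). The median log2 ratio of day 5 to 20°C, 2.46, was 1.52 with a pseudocount of 1 and 2.74 with 0.01. That of 10°C to 20°C, 0.16, was 0.060 with a pseudocount of 1, an alternative added after seeing the data. That of day 5 to day 1, 0.07, lay within 0.06 and 0.08 throughout. Members near another member numbered 33 within 5 kb and 50 within 20 kb, against 38 within 10 kb. No paired analysis was possible because the deposited columns carry no replicate numbers, and leaving out replicates was not run for the same reason. The alternatives for protein relatives were not run. At 10°C, 18 members were under 3 reads, so the size of their ratios is not fixed by these data.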
